A study of Mus musculus with 10 samples.

Results

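The livers of 2 obese mice of BFMI860-12/Hber, an inbred line of the Berlin fat mouse (here BFMI), were compared with those of 2 mice of the lean strain C57BL/6NCrl (here B6N). These 4 libraries are the inbred animals among 10 liver RNA-seq libraries of the series, and were taken by the strain and sex in their sample records. Each strain gave 1 male and 1 female aged 10 weeks, so n = 2 per strain and n = 1 per strain and sex. The other 6 libraries are F1 males of the reciprocal crosses, 3 with a BFMI father (patBFMI) and 3 with a BFMI mother (matBFMI). They entered the fit to estimate the spread between animals, and their levels are given as a reference. Of 41388 genes in the count table, 18968 autosomal genes reached 10 counts in 2 or more libraries and were tested.

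The sources disagree on the diet of the inbred animals. The treatment field of the sample records puts the parental strains on a standard breeding diet, and the F1 animals on a high fat diet from weaning. The study's text describes the inbred animals as raised on the high fat diet. If the records hold, both strains still shared 1 diet, and diet separates the inbred libraries from the F1 libraries only. The BFMI line carries a recessive mutation, mapped to chromosome 3, under which young animals store excess fat, and it differs from B6N at many other loci as well. A difference between the strains can therefore not be assigned to that mutation, to other loci or to obesity itself. Reads of both strains were aligned to the same reference, GRCm38. How reads of BFMI alleles and gene copies were counted was not tested.

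The liver takes up fatty acids, stores them as triglycerides, exports them in lipoproteins or oxidizes them in mitochondria and peroxisomes to ketone bodies and energy. It also makes cholesterol and bile acids, secretes most serum proteins, including complement and protease inhibitors, and clears drugs and steroids through cytochromes P450. Many of these genes follow insulin, growth hormone, feeding and the circadian clock, and several follow sex.

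The BFMI male library held 96023811 assigned reads, and the other 3 inbred libraries 46988713 to 55008330. By the column headers the BFMI male was sequenced on lane 1, the other 3 inbred animals on lane 4 and the F1 males on lanes 5 and 6. Levels are CPM (counts scaled to a common total of assigned reads) after TMM scaling, given for the male and then the female of a strain. Fold changes are those of BFMI over B6N. They come from edgeR's quasi-likelihood test with terms for group and sex, with Benjamini-Hochberg adjustment over all 19974 genes in the fit and a threshold of 0.05, and are given with their standard error (SE). A gene past it is named here as called. Xist and 4 Y-linked genes fitted the labelled sex of all 4 animals, and the summed level of 8 hepatocyte markers was 64100 to 89900 CPM. With sex as a block, a fit without either male rests on the female pair alone, and a fit without either female on the male pair alone. The female pair was sequenced on 1 lane. These pair fits take their spread from the other animals, and the lone animals are assumed to vary alike.

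Between the strains 1301 autosomal genes were called (6.86% of those tested), 707 higher (3.73%) and 594 lower (3.13%) in BFMI. A further 31 called genes are not autosomal and were left out. At an unadjusted p under 0.05 there were 3507 autosomal genes. The biological coefficient of variation was 17.7%. Of the called genes, 329 were higher by a fold of at least 2 and 364 were lower by as much. The 2 BFMI libraries lay apart from the 2 B6N libraries for 1266 of the 1301, but this was so for 44.1% of all genes tested. Only a part of these genes was called in every fit of both pairs. Many lost the call, or fell below the count filter, in a fit of each pair. In the fit of the 4 inbred libraries alone 788 genes were higher and 670 lower, and 1069 genes were called in both fits. The mean of the F1 males lay between the strain means for 86.2% of called genes and for 35.2% of all genes tested. Called genes are those with distant strain means, which leaves more room between them.

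**Figure D1:**
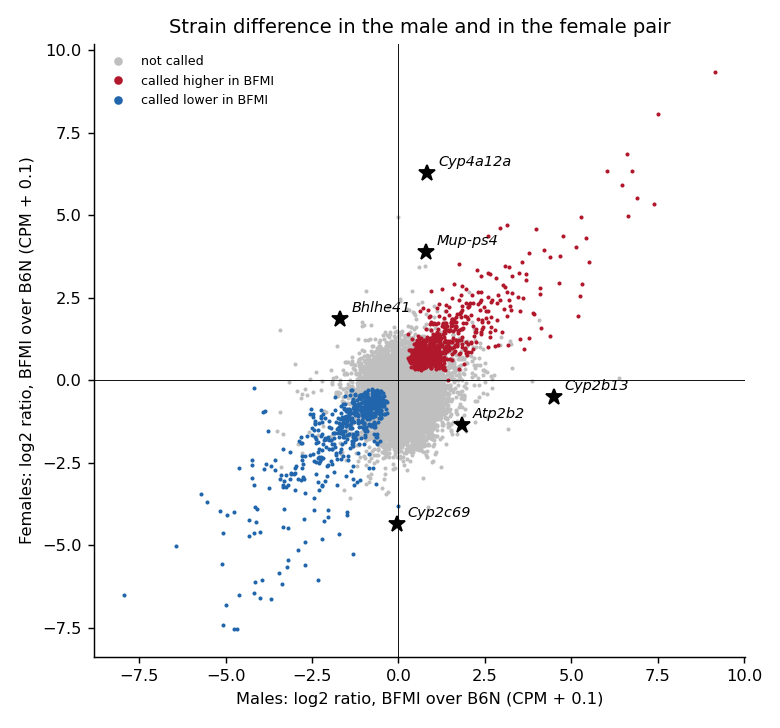
Log2 ratio of BFMI over B6N in the males (x axis) and in the females (y axis) for 18968 autosomal genes, from CPM plus 0.1. Red and blue points are the 707 genes called higher and the 594 called lower in BFMI, and stars mark the 6 genes whose strain difference itself differed between the pairs.

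Genes of triglyceride assembly were called in both directions. Gpat3, an acyltransferase of the first step of glycerolipid synthesis, was at 24.7 and 35.2 CPM in BFMI against 2.46 and 3.86 CPM in B6N (log2 fold change 3.25 ± 0.178 (SE), adjusted p = 3.56e-06). Both BFMI animals lay far above both B6N animals, and the F1 males lay between them at 8.46 to 11.9 CPM. Mogat1, which acylates monoacylglycerol, was at 1.36 and 0.563 CPM in BFMI against 0.351 and 0.203 CPM in B6N (log2 fold change 1.74 ± 0.391 (SE), adjusted p = 0.0258). The 2 phosphatidate phosphatases of the list, which make diacylglycerol and can act on transcription in the nucleus, went the other way. Lpin1 was at 37.6 and 46.7 CPM in BFMI against 196 and 336 CPM in B6N (log2 fold change -2.62 ± 0.397 (SE), adjusted p = 0.00313), and Lpin2 at 229.8 and 254 CPM in BFMI against 396 and 543 CPM in B6N (log2 fold change -0.94 ± 0.163 (SE), adjusted p = 0.00674). The strains did not overlap for any of these 4 genes, as was so for 44.1% of all genes tested. Of the 16 genes tested in the list, 2 were higher and 2 were lower (25.0%, against 6.86% over all autosomal genes tested). The median log2 fold change was 0.10 against -0.04 over all autosomal genes. Gpat3 passed the threshold in each sex pair taken alone. Lpin1 and Lpin2 passed in the female pair but not in the male pair (adjusted p up to 0.104). Mogat1 passed in neither pair alone (adjusted p up to 0.319).

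Of 21 tested genes of fatty acid uptake and activation, 2 were higher and 3 were lower in BFMI, and the median was 0.04. The called share was 23.8%, against 6.86% over all autosomal genes tested. Cd36, a fatty acid translocase of the cell surface, was at 228 and 218 CPM in BFMI against 44.02 and 50.2 CPM in B6N (log2 fold change 2.25 ± 0.296 (SE), adjusted p = 0.00136). The F1 males were at 28.9 to 74.1 CPM, around the B6N level. Fabp5, a cytosolic fatty acid binding protein, was at 2.56 and 10.6 CPM in BFMI against 138 and 116 CPM in B6N (log2 fold change -4.57 ± 0.55 (SE), adjusted p = 0.00075), with F1 males between the strains at 20.6 to 55.3 CPM. Fabp4, the related protein of adipocytes and macrophages, was at 13.5 and 8.697 CPM in BFMI against 5.84 and 6.55 CPM in B6N (log2 fold change 0.81 ± 0.196 (SE), adjusted p = 0.0347). The medium-chain acyl-CoA synthetases Acsm1 and Acsm2 were lower in BFMI, with Acsm1 at 168 and 176 CPM in BFMI against 284 and 307 CPM in B6N (log2 fold change -0.78 ± 0.128 (SE), adjusted p = 0.00501) and Acsm2 near 0.346 and 0.194 CPM against 0.998 and 1.69 CPM (log2 fold change -2.21 ± 0.464 (SE), adjusted p = 0.0185). Cd36 and Fabp5 kept the call both in the male pair and in the female pair. Fabp4 passed in the male pair but not in the female pair (adjusted p = 0.424). Acsm2 passed in the female pair but not in the male pair (adjusted p = 0.196). Acsm1 passed in neither pair alone (adjusted p up to 0.0709). For Fabp5 (-5.75 and -3.41) and Acsm2 (-1.52 and -3.08) the log2 fold change moved with the pair used, male and then female.

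In fatty acid synthesis 2 of 16 tested genes were higher and 0 were lower (median 0.18). Insig2, which holds the SREBP complex in the endoplasmic reticulum, was at 644 and 619 CPM in BFMI against 311 and 252 CPM in B6N (log2 fold change 1.17 ± 0.215 (SE), adjusted p = 0.00901). Pgd, an enzyme of the pentose phosphate pathway that yields NADPH, was at 29.6 and 33.8 CPM in BFMI against 13.6 and 19.7 CPM in B6N (log2 fold change 0.95 ± 0.191 (SE), adjusted p = 0.0147). The synthase itself, Fasn, was at 842 and 1117 CPM in BFMI against 456 and 928 CPM in B6N, and the animals overlapped (log2 fold change 0.58, adjusted p = 0.29). Among 17 desaturases and elongases 1 gene was called (5.88%, against 6.86% over all autosomal genes tested). It was Tecr, the enoyl reductase of chain elongation, at 91.9 and 85.1 CPM in BFMI against 54.3 and 54.7 CPM in B6N (log2 fold change 0.698 ± 0.157 (SE), adjusted p = 0.0257). Elovl5 was at 1709 and 2211 CPM in BFMI against 1204 and 1211 CPM in B6N (log2 fold change 0.69, adjusted p = 0.132). In the cholesterol list Hmgcs1, which makes the HMG-CoA of sterol synthesis, was at 669.7 and 724 CPM in BFMI against 247 and 374 CPM in B6N (log2 fold change 1.198 ± 0.226 (SE), adjusted p = 0.0105). In that list 2 of 22 tested genes were higher and 0 were lower, with 18 positive log2 fold changes and a median of 0.36. On lipid droplets 1 of 19 genes was called (5.26%). It was Cideb, a protein of droplets and lipoprotein loading, at 19.3 and 15.3 CPM in BFMI against 12.2 and 10.9 CPM in B6N (log2 fold change 0.58 ± 0.137 (SE), adjusted p = 0.0333). Plin2, the main droplet coat of hepatocytes, was at 774 and 702 CPM in BFMI against 621 and 347 CPM in B6N (log2 fold change 0.67, adjusted p = 0.0859). Hmgcs1 passed in the male pair but not in the female pair (adjusted p = 0.175). Insig2, Pgd, Tecr and Cideb passed in neither pair alone (adjusted p up to 0.272).

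Mitochondrial β-oxidation and ketogenesis was the fatty acid list with the most calls: 7 of 24 tested genes were higher (29.2%) and 0 were lower. Over all autosomal genes tested 3.73% were higher. The list had 20 positive log2 fold changes and a median of 0.32. Along the pathway, Acadm, the medium-chain dehydrogenase, was at 383 and 390.3 CPM in BFMI against 233 and 186 CPM in B6N (log2 fold change 0.89 ± 0.149 (SE), adjusted p = 0.00551). Decr1, which reduces double bonds of unsaturated chains, was at 296 and 291 CPM in BFMI against 218 and 161 CPM in B6N (log2 fold change 0.65 ± 0.159 (SE), adjusted p = 0.0371), and Hadh, the short-chain hydroxyacyl dehydrogenase, was at 310.4 and 310 CPM in BFMI against 199 and 219.9 CPM in B6N (log2 fold change 0.57, adjusted p = 0.0405). Enzymes of ketone body synthesis followed. Acat1, which joins acetyl-CoA units, was at 572 and 576 CPM in BFMI against 389 and 345 CPM in B6N (log2 fold change 0.65, adjusted p = 0.0201), and Bdh1, which makes 3-hydroxybutyrate, was at 331 and 298 CPM in BFMI against 234 and 198 CPM in B6N (log2 fold change 0.54, adjusted p = 0.0447). These 5 genes were higher in both BFMI animals than in either B6N animal. The strains lay apart, in either direction, for 44.1% of all genes tested. Acadm passed in the female pair but not in the male pair (adjusted p = 0.103). Decr1, Hadh, Acat1 and Bdh1 passed in neither pair alone (adjusted p up to 0.365). In the 4 inbred libraries alone 2 genes of the list were called, and without either female, or without either male, 0 and 2.

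Peroxisomal oxidation held 2 called genes of 31 (6.45%, against 6.86% over all autosomal genes tested), both higher in BFMI (median 0.16). Ehhadh, the bifunctional enzyme, was at 505 and 592 CPM in BFMI against 280.2 and 433 CPM in B6N (log2 fold change 0.65, adjusted p = 0.0358). Scaling by library size alone gave 6 calls in this list, and the 4 inbred libraries alone gave 0. DESeq2 gave 8 higher and 1 lower, and voom 4 and 1. In the main fit 23 of the 31 log2 fold changes were positive, with 13 genes at an unadjusted p under 0.05. Acyl-CoA thioesterases, which free fatty acids from coenzyme A, held 3 higher and 1 lower of 13 tested genes (median 0.36). Acot11, a long-chain thioesterase, was at 10.8 and 8.33 CPM in BFMI against 2.18 and 2.79 CPM in B6N (log2 fold change 1.94 ± 0.1899 (SE), adjusted p = 0.000186). The mitochondrial Acot2 was at 14.9 and 15.7 CPM in BFMI against 7.28 and 7.199 CPM in B6N (log2 fold change 1.08 ± 0.24 (SE), adjusted p = 0.0242) and the peroxisomal Acot6 at 2.05 and 2.95 CPM in BFMI against 1.02 and 0.793 CPM in B6N (log2 fold change 1.44 ± 0.308 (SE), adjusted p = 0.0204). Acot13 was lower, at 17.3 and 19.9 CPM in BFMI against 24.9 and 33.2 CPM in B6N (log2 fold change -0.63 ± 0.1202 (SE), adjusted p = 0.011). Omega oxidation held 2 lower genes of 15 tested (median 0.28), Por, the electron donor of microsomal P450 enzymes, at 45.4 and 78.1 CPM in BFMI against 93.9 and 188 CPM in B6N (log2 fold change -1.16 ± 0.258 (SE), adjusted p = 0.0244), and the alcohol dehydrogenase Adh1 at 678 and 838 CPM in BFMI against 993 and 1289 CPM in B6N (log2 fold change -0.59, adjusted p = 0.0309). This list gave 3 higher and 1 lower with the 4 inbred libraries alone and 3 and 2 by DESeq2. Without either male it gave 2 and 0, and no call without either female or without the block on sex. Of 20 targets of PPARα and fasting, 2 were higher, Ehhadh among them, and Vnn1, a pantetheinase, was lower, at 14.4 and 22.3 CPM in BFMI against 68.4 and 47.8 CPM in B6N (log2 fold change -1.68 ± 0.324 (SE), adjusted p = 0.0119). Acot11 kept the call both in the male pair and in the female pair. Vnn1 passed in the male pair but not in the female pair (adjusted p = 0.22). Acot6 passed in the female pair but not in the male pair (adjusted p = 0.244). Ehhadh, Acot2, Acot13, Por and Adh1 passed in neither pair alone (adjusted p up to 0.345). For Vnn1 (-2.25 and -1.07) the log2 fold change moved with the pair used, male and then female. The PPARα list gave no call without either male, and 1 higher and 1 lower without either female.

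The study picked Acsl3, Cyp4a10, Cyp4a14, Acot4 and Elovl6 by a difference between the reciprocal F1 males, and showed parental levels beside them. It states no test of the inbred strains for these genes. Between the strains none of them was called here. Acsl3, an acyl-CoA synthetase, was at 34.2 and 47.1 CPM in BFMI against 21.4 and 70.95 CPM in B6N (log2 fold change 0.038, adjusted p = 0.967). Cyp4a10 was at 391 and 338 CPM in BFMI against 218 and 335 CPM in B6N (log2 fold change 0.43, adjusted p = 0.751) and Cyp4a14 at 429.5 and 414 CPM in BFMI against 259.7 and 527 CPM in B6N (log2 fold change 0.19, adjusted p = 0.883). Acot4 was at 8.83 and 14.7 CPM in BFMI against 4.53 and 14.5 CPM in B6N (log2 fold change 0.48, adjusted p = 0.485), and the elongase Elovl6 at 241 and 154 CPM in BFMI against 138 and 244 CPM in B6N (log2 fold change 0.072, adjusted p = 0.96). The strains overlapped for Acsl3, Cyp4a14, Acot4 and Elovl6: the B6N male was the lowest of the 4 animals, and the B6N female lay above the BFMI male.

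**Figure D2:**
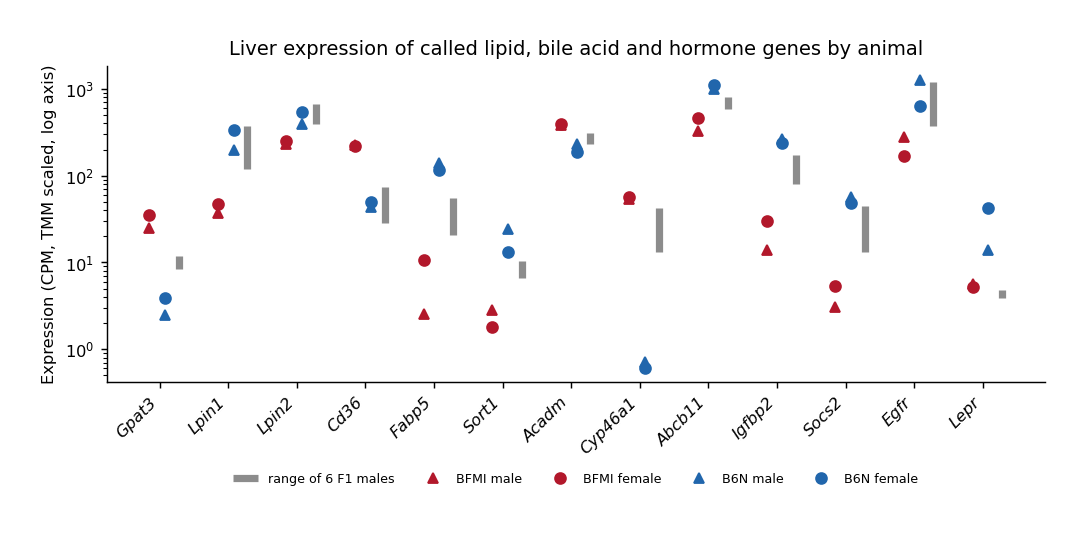
Expression in CPM on a log axis of 13 called genes of lipid metabolism, bile acids and hormone signalling in the 4 inbred animals, with the range of the 6 F1 males in grey. Red symbols (BFMI) lie apart from blue symbols (B6N) for all 13 genes, which were picked from the called genes. The strains lay apart for 44.1% of all genes tested.

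Of 30 genes of lipoproteins and their receptors, 1 was higher and 3 were lower (13.3%, against 6.86% over all autosomal genes tested). Apoa4, an apolipoprotein of intestine and liver, was at 1459 and 1004 CPM in BFMI against 848 and 444 CPM in B6N (log2 fold change 0.98 ± 0.222 (SE), adjusted p = 0.0259). Sort1, a sorting receptor that binds apolipoprotein B, was at 2.87 and 1.79 CPM in BFMI against 24.03 and 13.3 CPM in B6N (log2 fold change -2.99 ± 0.224 (SE), adjusted p = 3.16e-05), with F1 males between the strains at 6.54 to 10.4 CPM. Apom, an apolipoprotein of HDL, was at 87.4 and 125 CPM in BFMI against 203 and 210.5 CPM in B6N (log2 fold change -0.98 ± 0.139 (SE), adjusted p = 0.00206). Vldlr, a receptor for triglyceride-rich particles, was at 1.04 and 2.23 CPM in BFMI against 2.13 and 7.28 CPM in B6N (log2 fold change -1.38 ± 0.291 (SE), adjusted p = 0.0189), and its strains overlapped because the BFMI female lay above the B6N male. Sort1 was called in each pair alone. Apom passed in the male pair but not in the female pair (adjusted p = 0.0622). Apoa4 and Vldlr passed in neither pair alone (adjusted p up to 0.255).

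Bile acid genes were called in 6 of 26 cases (23.1%, against 6.86% over all autosomal genes tested), 4 higher and 2 lower. Cyp46a1, a cholesterol 24-hydroxylase known mainly from neurons, had the largest difference of the list, at 53.4 and 57.4 CPM in BFMI against 0.721 and 0.6101 CPM in B6N (log2 fold change 6.37 ± 0.369 (SE), adjusted p = 5.43e-06), with F1 males at 13.4 to 42.3 CPM. Cyp39a1, which acts on its product, was lower, at 6.81 and 18.7 CPM in BFMI against 19.98 and 40.4 CPM in B6N (log2 fold change -1.33 ± 0.303 (SE), adjusted p = 0.0273). Cyp8b1, the 12α-hydroxylase that sets the share of cholic acid, was at 384 and 314 CPM in BFMI against 200.3 and 150.1 CPM in B6N (log2 fold change 1.002 ± 0.185 (SE), adjusted p = 0.00948). On the canalicular membrane the transporters went in opposite directions. The bile salt export pump Abcb11 was at 328 and 457 CPM in BFMI against 1002 and 1104 CPM in B6N (log2 fold change -1.44 ± 0.149 (SE), adjusted p = 0.000268), and the phospholipid transporter Abcb4 at 601 and 403 CPM in BFMI against 326 and 278 CPM in B6N (log2 fold change 0.71 ± 0.145 (SE), adjusted p = 0.0159). Fgfr4, the receptor that carries the intestinal bile acid signal, was at 21.7 and 21.6 CPM in BFMI against 13.1 and 16.9 CPM in B6N (log2 fold change 0.55, adjusted p = 0.0474). Cyp46a1 and Abcb11 passed the threshold in each sex pair taken alone. Abcb4 passed in the male pair but not in the female pair (adjusted p = 0.212). Cyp39a1, Cyp8b1 and Fgfr4 passed in neither pair alone (adjusted p up to 0.421).

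Of the 33 pathway lists, that of insulin and growth hormone had the largest share of lower genes: 6 of 23 were lower and 1 was higher. The called share of this list was 30.4%, against 6.86% over all autosomal genes tested. The insulin-like growth factor binding protein Igfbp2 was at 13.9 and 30.4 CPM in BFMI against 262 and 239 CPM in B6N (log2 fold change -3.61 ± 0.374 (SE), adjusted p = 0.000271), and the fasting-induced Igfbp1 at 23.5 and 14.6 CPM in BFMI against 66.3 and 246 CPM in B6N (log2 fold change -2.77 ± 0.533 (SE), adjusted p = 0.0116). Socs2, a feedback inhibitor induced by growth hormone, was at 3.08 and 5.32 CPM in BFMI against 57.1 and 48.3 CPM in B6N (log2 fold change -3.7 ± 0.509 (SE), adjusted p = 0.00171). For all 3 genes both BFMI animals lay below both B6N animals, while the strains lay apart, in either direction, for 44.1% of all genes tested. Egfr, the EGF receptor, was at 280.3 and 167 CPM in BFMI against 1272 and 634 CPM in B6N (log2 fold change -2.05 ± 0.254 (SE), adjusted p = 0.000919). The leptin receptor Lepr was at 5.58 and 5.28 CPM in BFMI against 14.1 and 42.4 CPM in B6N (log2 fold change -2.16 ± 0.318 (SE), adjusted p = 0.00259), and its F1 males, at 3.86 to 4.87 CPM, lay below both strains. Irs2, an adaptor of the insulin receptor, was at 4.79 and 5.43 CPM in BFMI against 11.1 and 10.9 CPM in B6N (log2 fold change -1.11 ± 0.1802 (SE), adjusted p = 0.00478). Stat5a, a transcription factor of this pathway, was the higher gene, at 15.98 and 13.7 CPM in BFMI against 8.87 and 9.29 CPM in B6N (log2 fold change 0.71, adjusted p = 0.0248). Igfbp2, Egfr and Lepr kept the call both in the male pair and in the female pair. Socs2 and Irs2 passed in the male pair but not in the female pair (adjusted p up to 0.0989). Igfbp1 passed in the female pair but not in the male pair (adjusted p = 0.0712). Stat5a passed in neither pair alone (adjusted p up to 0.265). For Igfbp2 (-4.24 and -2.95), Igfbp1 (-1.498 and -4.04) and Lepr (-1.34 and -2.97) the log2 fold change moved with the pair used, male and then female. Without either female, and without either male, 5 genes of the list were called lower.

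Of 31 genes of glucose metabolism 2 were called (6.45%, against 6.86% over all autosomal genes tested), both lower in BFMI. Pfkfb3, which makes the activator of glycolysis fructose 2,6-bisphosphate, was at 4.18 and 2.41 CPM in BFMI against 12.1 and 18.5 CPM in B6N (log2 fold change -2.19 ± 0.432 (SE), adjusted p = 0.0132). Ppp1r3g, which targets a phosphatase to glycogen, was at 0.247 and 0.718 CPM in BFMI against 1.77 and 12.3 CPM in B6N (log2 fold change -3.54 ± 0.837 (SE), adjusted p = 0.0321), and the B6N female lay far above the other 3 animals. The gluconeogenic Pck1 was at 1419 and 1669 CPM in BFMI against 2211 and 3407 CPM in B6N (log2 fold change -0.83, adjusted p = 0.149). Pfkfb3 passed in the female pair but not in the male pair (adjusted p = 0.176). Ppp1r3g passed in neither pair alone (adjusted p up to 0.312). For Pfkfb3 (-1.53 and -2.91) and Ppp1r3g (-2.83 and -4.06) the log2 fold change moved with the pair used, male and then female.

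The juvenile obesity region of chromosome 3 was covered by 12 tested genes, and 1 of them was called (8.33%, against 6.86% over all autosomal genes tested). Bbs7 encodes a subunit of the BBSome, the complex that moves receptors in and out of cilia, and lies on the minus strand of chromosome 3 at 36573142 to 36613477 (GRCm38). It was at 1.23 and 1.204 CPM in BFMI against 2.96 and 3.74 CPM in B6N, low but apart between the strains (log2 fold change -1.45 ± 0.208 (SE), adjusted p = 0.00225), and at 1.56 to 2.14 CPM in the F1 males, between the strains. Bbs7 passed the threshold in each sex pair taken alone. Bbs12, which encodes a chaperonin-like protein of BBSome assembly, was at 0.257 and 0.33 CPM in BFMI against 0.518 and 0.529 CPM in B6N (log2 fold change -0.85, adjusted p = 0.485). The gene 4932438A13Rik was at 118 and 89.3 CPM in BFMI against 78.7 and 95.3 CPM in B6N, with an adjusted p of 0.543, and Anxa5, a calcium-dependent phospholipid binder, was at 77.7 and 58.5 CPM in BFMI against 59.4 and 58.3 CPM in B6N, with an adjusted p of 0.65. For Exosc9, Spata5, Nudt6, Spry1, Ccna2, Il2 and Fgf2 the log2 fold changes were 0.12, -0.095, -0.049, -0.036, 0.18, 0.39 and -0.37, with adjusted p between 0.769 and 0.96. Il2 and Fgf2 were near the lower limit of detection in all 4 animals, and Nudt6 lies antisense to Fgf2, so that their reads may be shared.

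Clock genes were called in both directions, 3 higher and 3 lower of 20 tested. Arntl and Npas2, partner transcription factors of the activating arm that bind E-boxes, were higher in BFMI. Arntl was at 23.3 and 20.6 CPM in BFMI against 5.88 and 12.1 CPM in B6N (log2 fold change 1.37 ± 0.353 (SE), adjusted p = 0.0457), and Npas2 at 4.27 and 2.62 CPM in BFMI against 0.499 and 1.2 CPM in B6N (log2 fold change 2.06 ± 0.488 (SE), adjusted p = 0.0321). The 3 lower genes were Per3, Tef and Nr1d2. Per3, a period protein, was at 3.48 and 8.41 CPM in BFMI against 10.6 and 15.03 CPM in B6N (log2 fold change -1.22 ± 0.292 (SE), adjusted p = 0.0346), Tef, a D-box binding factor, at 41.1 and 68.8 CPM in BFMI against 97.4 and 93.7 CPM in B6N (log2 fold change -0.85 ± 0.211 (SE), adjusted p = 0.0403), and Nr1d2, a nuclear receptor that represses through AGGTCA elements, at 59.8 and 84.7 CPM in BFMI against 99.3 and 105 CPM in B6N (log2 fold change -0.52, adjusted p = 0.0453). In the F1 males Arntl spanned 4.35 to 22.4 CPM and Per3 9.13 to 38.7 CPM, wider than either strain. The F1 males are more animals than either strain gave, and they come from both crosses. For these crosses the study reports lower Arntl and higher Per3 in matBFMI than in patBFMI males. Arntl, Npas2, Tef and Nr1d2 passed in the male pair but not in the female pair (adjusted p up to 0.474). Per3 passed in neither pair alone (adjusted p up to 0.364). For Arntl (1.99 and 0.8) and Npas2 (3.09 and 1.16) the log2 fold change moved with the pair used, male and then female. The time of day of dissection is not given for these animals, and its part was not tested. Without either female 2 genes of the list were higher and 4 lower, and without either male 1 and 0. Without the block on sex 2 were higher and 0 lower, and with the 4 inbred libraries alone 3 and 6.

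The letters of 3 clock elements were searched on both strands in the 250 bases before the start sites of the clock genes. They were the E-box CACGTG, the D-box TTATGTAA and the nuclear receptor half-site AGGTCA. The windows of Per3, Tef and Nr1d2, all called lower, are shown because they are the called clock genes that held a match. RefSeq (GRCm38.p6) gave windows for 17 of the 20 clock genes. Sequences are written 5′ to 3′ on the strand of the gene, in lower case with the matched elements in capitals. Per3 holds 2 D-boxes, 205 and 158 bases before its start. Each of the 2 Tef starts has 1 E-box, and Nr1d2 has 1 half-site 77 bases before its start. No match was present before Npas2 or either start of Arntl. Of the 17 clock genes with 22 windows, 5 held the E-box, 4 the half-site and 1 the D-box. Of all 25748 autosomal genes with such windows 6.88% held the E-box, 15.8% the half-site and 0.994% the D-box. These are matches of letters only, and binding was not measured.
Per3 (chr4:151044666-151044915, minus strand): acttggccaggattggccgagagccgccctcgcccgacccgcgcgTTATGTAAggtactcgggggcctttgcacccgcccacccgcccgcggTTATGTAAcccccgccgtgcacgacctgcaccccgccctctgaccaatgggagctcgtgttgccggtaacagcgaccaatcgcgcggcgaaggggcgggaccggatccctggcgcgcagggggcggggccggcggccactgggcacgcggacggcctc
Tef, first start (chr15:81802423-81802672, plus strand): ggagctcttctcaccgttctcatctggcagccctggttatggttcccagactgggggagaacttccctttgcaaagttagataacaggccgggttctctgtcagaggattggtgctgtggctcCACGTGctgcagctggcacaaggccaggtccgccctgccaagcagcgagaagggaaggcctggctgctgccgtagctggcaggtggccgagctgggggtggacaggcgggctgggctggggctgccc
Tef, other start (chr15:81811164-81811413, plus strand): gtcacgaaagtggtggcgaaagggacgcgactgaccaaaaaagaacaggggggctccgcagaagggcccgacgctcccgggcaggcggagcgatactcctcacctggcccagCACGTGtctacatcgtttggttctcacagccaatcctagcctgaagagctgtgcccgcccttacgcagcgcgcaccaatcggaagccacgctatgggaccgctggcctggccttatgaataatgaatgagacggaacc
Nr1d2 (chr14:18239107-18239356, minus strand): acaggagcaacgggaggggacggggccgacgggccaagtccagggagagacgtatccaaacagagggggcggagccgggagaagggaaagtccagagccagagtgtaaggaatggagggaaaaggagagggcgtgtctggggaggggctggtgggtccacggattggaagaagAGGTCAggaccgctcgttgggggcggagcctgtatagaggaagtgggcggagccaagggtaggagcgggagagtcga

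Cytochrome P450 genes of family 2, which oxidize drugs, steroids and fatty acids, were the list with the most calls. The calls numbered 14 of 37 (37.8%, against 6.86% over all autosomal genes tested), with 7 in each direction. Cyp2c39, a retinoid and fatty acid hydroxylase, was at 224 and 465 CPM in BFMI against 1.79 and 10.1 CPM in B6N (log2 fold change 6.19 ± 0.399 (SE), adjusted p = 1.14e-05), with F1 males at 22.1 to 81.3 CPM. Cyp2a22 was at 70.7 and 69.8 CPM in BFMI against 21.3 and 25.9 CPM in B6N (log2 fold change 1.58 ± 0.156 (SE), adjusted p = 0.000201). Higher by less were Cyp2f2 (log2 fold change 0.803), Cyp2d22 (0.71), Cyp2a12 (0.66), Cyp2d11 (0.56) and Cyp2d10 (0.52). On the lower side Cyp2c68 was at 80.1 and 166 CPM in BFMI against 201 and 548 CPM in B6N (log2 fold change -1.52 ± 0.172 (SE), adjusted p = 0.000464), Cyp2d40 at 41.9 and 27.7 CPM in BFMI against 115 and 61.8 CPM in B6N (log2 fold change -1.31 ± 0.198 (SE), adjusted p = 0.00305), and the vitamin D 25-hydroxylase Cyp2r1 at 9.23 and 13.6 CPM in BFMI against 17.9 and 21.6 CPM in B6N (log2 fold change -0.81 ± 0.115 (SE), adjusted p = 0.00208). Cyp2c40 was at 34.98 and 80.3 CPM in BFMI against 55.3 and 714 CPM in B6N (log2 fold change -1.91, adjusted p = 0.0442), and the BFMI female lay above the B6N male. Cyp2c37, Cyp2c55 and Cyp2c70 were also lower (-1.29, -1.33 and -0.82), and the strains overlapped for Cyp2c37 and Cyp2c70. These genes have close paralogs in tandem clusters, and counts may be split between copies. Cyp2c39, Cyp2a22 and Cyp2c68 were called in each pair alone. Cyp2d40 and Cyp2r1 passed in the male pair but not in the female pair (adjusted p up to 0.0841). Cyp2f2, Cyp2c40 and Cyp2c37 passed in the female pair but not in the male pair (adjusted p up to 0.347). Cyp2d22, Cyp2a12, Cyp2d10, Cyp2c55 and Cyp2c70 passed in neither pair alone. Cyp2d11 did not pass in every fit of either pair, with log2 fold changes of 0.63 in the male and 0.51 in the female pair. For Cyp2c39 (6.96 and 5.56), Cyp2c40 (-0.66 and -3.12) and Cyp2c37 (-0.63 and -1.92) the log2 fold change moved with the pair used, male and then female.

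Of 17 P450 genes of families 1 and 3 (and Cyp17a1), 2 were higher and 1 was lower (17.6%, against 6.86% over all autosomal genes tested). Cyp3a59 was at 74.3 and 78.9 CPM in BFMI against 20.8 and 16.4 CPM in B6N (log2 fold change 2.05 ± 0.1302 (SE), adjusted p = 1.03e-05) and Cyp3a25 at 549 and 561 CPM in BFMI against 284 and 194 CPM in B6N (log2 fold change 1.24 ± 0.166 (SE), adjusted p = 0.00148), both monooxygenases of steroids and drugs. Cyp17a1, the 17α-hydroxylase of steroid synthesis, was at 0.692 and 5.12 CPM in BFMI against 26.7 and 128 CPM in B6N (log2 fold change -4.91 ± 0.267 (SE), adjusted p = 3.47e-06). Both females lay above the males of their strain, and both BFMI animals below both B6N animals. Of 18 genes of steroid metabolism Sult1e1, the estrogen sulfotransferase, was higher, at 0.316 and 2.66 CPM in BFMI against 0.07395 and 0.305 CPM in B6N (log2 fold change 2.74 ± 0.505 (SE), adjusted p = 0.0094), as was Hsd11b1, which regenerates corticosterone, at 458 and 616 CPM in BFMI against 357 and 381 CPM in B6N (log2 fold change 0.53, adjusted p = 0.0413). Cyp3a59, Cyp3a25 and Cyp17a1 passed the threshold in each sex pair taken alone. Sult1e1 passed in the female pair but not in the male pair (adjusted p = 0.363). Hsd11b1 passed in neither pair alone (adjusted p up to 0.356). For Sult1e1 (2.07 and 3.14) the log2 fold change moved with the pair used, male and then female. The P450 genes of families 1 and 3 gave 8 higher and 1 lower with the 4 inbred libraries alone, 5 and 1 by voom, and 3 and 1 by DESeq2 and without any 1 inbred animal.

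Among conjugating enzymes, which add glucuronide, sulfate or glutathione, most calls were higher, 9 against 1 of 47 tested. The called share was 21.3%, against 6.86% over all autosomal genes tested. Ugt1a9, a glucuronosyltransferase, was at 56.02 and 56.5 CPM in BFMI against 9.26 and 16.6 CPM in B6N (log2 fold change 2.18 ± 0.2602 (SE), adjusted p = 0.000707). The glutathione transferases Gstm2, at 82.8 and 51.8 CPM in BFMI against 15.8 and 19.4 CPM in B6N (log2 fold change 1.91 ± 0.341 (SE), adjusted p = 0.00804), Gstm6 (log2 fold change 1.21, adjusted p = 0.0159) and Gsta1 (log2 fold change 1.79, adjusted p = 0.0346) were higher too. Ugt3a1, Ugt2b35, Ugt2b36 and Sult1b1 were higher by 0.68, 0.62, 0.54 and 0.61 on the log2 scale. The lower gene, Sult3a1, is expressed in females: it was at 0.129 and 6.79 CPM in BFMI against 0.129 and 95.6 CPM in B6N (log2 fold change -3.32 ± 0.605 (SE), adjusted p = 0.00882), with both males near 0. Sult3a1 was not called by DESeq2 (adjusted p = 0.341). Of 20 flavin monooxygenases and carboxylesterases, Ces1b was higher, at 219 and 443 CPM in BFMI against 53.5 and 88.6 CPM in B6N (log2 fold change 2.18 ± 0.135 (SE), adjusted p = 9.38e-06), while Fmo2, Ces1c, Aadac and Ces3b were lower (log2 fold changes -1.72, -0.54, -0.78 and -0.64). The strains overlapped for Sult3a1, Ugt2b35, Fmo2, Ces1c and Ephx1. Of 25 antioxidant genes 3 were higher: Gclc, the catalytic subunit of glutathione synthesis, at 516 and 333 CPM in BFMI against 249 and 184 CPM in B6N (log2 fold change 0.95 ± 0.174 (SE), adjusted p = 0.00902), the sulfiredoxin Srxn1 at 62.8 and 36.7 CPM in BFMI against 29.1 and 24.2 CPM in B6N (log2 fold change 0.86 ± 0.142 (SE), adjusted p = 0.00518), and the epoxide hydrolase Ephx1 (log2 fold change 0.94, adjusted p = 0.0254). Ugt1a9 and Ces1b kept the call both in the male pair and in the female pair. Gstm2, Aadac, Ces3b, Srxn1 and Ephx1 passed in the male pair but not in the female pair (adjusted p up to 0.429). Sult3a1 and Fmo2 passed in the female pair but not in the male pair (adjusted p up to 0.999). Gstm6, Gsta1, Ugt3a1, Ugt2b35, Ugt2b36, Sult1b1, Ces1c and Gclc passed in neither pair alone (adjusted p up to 0.353). For Sult3a1 (-0.0095 and -3.79) and Fmo2 (-0.76 and -2.62) the log2 fold change moved with the pair used, male and then female. Without either male 3 conjugating enzymes were higher and 2 lower, without either female 3 and 1, and without the block on sex 5 and 0.

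Acute phase genes and serpins, a family of protease inhibitors, were called in 10 of 38 cases, 8 higher and 2 lower. The called share was 26.3%, against 6.86% over all autosomal genes tested. Serpina3c, on the minus strand of chromosome 12 at 104146382 to 104153870 (GRCm38), was at 201 and 179 CPM in BFMI against 0.998 and 0.569 CPM in B6N (log2 fold change 7.94 ± 0.229 (SE), adjusted p = 1.5e-07), one of the largest differences in the liver, with F1 males between the strains at 103 to 133 CPM. Its neighbours were higher as well. Serpina3m was at 1379 and 1497 CPM in BFMI against 434 and 475 CPM in B6N (log2 fold change 1.66 ± 0.133 (SE), adjusted p = 4.67e-05) and Serpina3n at 514 and 432 CPM in BFMI against 246 and 237 CPM in B6N (log2 fold change 0.96 ± 0.134 (SE), adjusted p = 0.00186), and the less expressed Serpina3a and Serpina3i had log2 fold changes of 4.11 and 2.52. The α1-antitrypsin paralogs Serpina1d and Serpina1e were lower, at 1378 and 1140 CPM in BFMI against 2764 and 2810 CPM in B6N and at 701 and 616 CPM in BFMI against 3766 and 1500 CPM in B6N (log2 fold changes -1.15 and -1.85). These paralogs are close in sequence, so counts may be split between them. Among acute phase proteins Lcn2, a siderophore binder, was at 34.3 and 10.4 CPM in BFMI against 1.53 and 4.01 CPM in B6N (log2 fold change 2.87 ± 0.615 (SE), adjusted p = 0.0204), Orm3, an orosomucoid, at 5.101 and 10.3 CPM in BFMI against 0.203 and 1.403 CPM in B6N (log2 fold change 3.52 ± 0.404 (SE), adjusted p = 0.000535), and Apcs, serum amyloid P, at 175 and 313 CPM in BFMI against 91.5 and 129 CPM in B6N (log2 fold change 1.104, adjusted p = 0.0203). Lcn2 is also made by neutrophils, whose 7 markers summed to 8.82 and 4.23 CPM in BFMI and 2.16 and 2.95 CPM in B6N, and their part was not tested. Serpina3c, Serpina3m, Serpina3n, Serpina3a, Serpina3i, Serpina1d, Serpina1e and Orm3 were called in each pair alone. Lcn2 passed in the male pair but not in the female pair (adjusted p = 0.159). Apcs passed in neither pair alone (adjusted p up to 0.21). For Serpina1e (-2.42 and -1.25), Lcn2 (4.48 and 1.41) and Orm3 (4.63 and 2.91) the log2 fold change moved with the pair used, male and then female.

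Complement and coagulation genes were called in 1 direction: 8 of 39 were lower (20.5%, against 3.13% over all autosomal genes tested) and 0 were higher. The complement factor H-related gene Cfhr2 was at 229 and 296 CPM in BFMI against 598 and 585 CPM in B6N (log2 fold change -1.19 ± 0.166 (SE), adjusted p = 0.00189). The complement component genes C4b, at 254 and 260.2 CPM in BFMI against 1488 and 1241 CPM in B6N (log2 fold change -2.401 ± 0.159 (SE), adjusted p = 1.33e-05), and C4a, at 57.5 and 36.5 CPM in BFMI against 179 and 139.5 CPM in B6N (log2 fold change -1.79 ± 0.134 (SE), adjusted p = 3.08e-05), were lower together. C6 of the membrane attack complex was at 53.2 and 10.8 CPM in BFMI against 287 and 30.9 CPM in B6N (log2 fold change -1.99 ± 0.28 (SE), adjusted p = 0.002), and the strains overlapped. In coagulation and fibrinolysis F12 was at 148 and 163 CPM in BFMI against 312 and 301 CPM in B6N (log2 fold change -0.98 ± 0.145 (SE), adjusted p = 0.0026), Pros1, protein S, at 57.9 and 68.7 CPM in BFMI against 102 and 104 CPM in B6N (log2 fold change -0.71 ± 0.121 (SE), adjusted p = 0.00607), and Plg, plasminogen, at 887 and 1042 CPM in BFMI against 1476 and 1563 CPM in B6N (log2 fold change -0.66 ± 0.114 (SE), adjusted p = 0.00648). For C4b and C4a the F1 males lay between the strains at 739 to 931 and 97.7 to 115 CPM. C4b and C4a passed the threshold in each sex pair taken alone. Cfhr2, C6, F12, Pros1 and Plg passed in the male pair but not in the female pair (adjusted p up to 0.122). Without either female 9 genes of the list were lower, and without either male 3.

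The list of genes of the major histocompatibility complex (MHC) was also called in 1 direction by edgeR. It held 9 of 31 higher (29.0%, against 3.73% over all autosomal genes tested) and 0 lower. DESeq2 gave 11 higher and 1 lower. The list leaves out C4a, C4b and Apom, which lie in the same region of chromosome 17 and were lower. The class II pseudogene H2-Ea-ps was at 18.8 and 23.2 CPM in BFMI against 0.0924 and 0.102 CPM in B6N (log2 fold change 7.72 ± 0.277 (SE), adjusted p = 4.17e-07). The class II chains H2-Aa and H2-Ab1 and the invariant chain Cd74 were higher by less (log2 fold changes 0.78, 0.702 and 0.93), with Cd74 at 66.3 and 62.9 CPM in BFMI against 29.5 and 39.2 CPM in B6N. H2-DMb2 of class II peptide loading was at 1.74 and 1.398 CPM in BFMI against 0.666 and 0.6101 CPM in B6N (log2 fold change 1.29, adjusted p = 0.0476). DESeq2 did not call H2-DMb2 (adjusted p = 0.0539). Of class I genes H2-Q2 was at 12 and 13.5 CPM in BFMI against 2.68 and 2.16 CPM in B6N (log2 fold change 2.397 ± 0.234 (SE), adjusted p = 0.000186), and H2-Q1, H2-Q4 and H2-T24 had log2 fold changes of 0.99, 0.69 and 1.13. The markers of macrophages, which carry class II molecules, summed to less in BFMI (417 and 442 CPM against 586 and 593 CPM), and those of B and plasma cells to 6.24 and 8.91 CPM against 12.2 and 11.2 CPM. Strains can carry different alleles and copies of these genes, and how reads of other alleles were counted was not tested. Of 42 interferon response genes 2 were higher and 5 were lower (16.7%, against 6.86% over all autosomal genes tested). Bst2, which tethers virions, was at 30.8 and 29.8 CPM in BFMI against 61.3 and 73.7 CPM in B6N (log2 fold change -1.15 ± 0.144 (SE), adjusted p = 0.000963). Tgtp1, Tgtp2, Usp18 and Gbp2 had log2 fold changes of -1.04, -0.93, -0.73 and -0.701, and the higher Mx2 and Stat2 0.88 and 0.51. H2-Ea-ps, Cd74, H2-Q2 and Bst2 kept the call both in the male pair and in the female pair. H2-Aa, H2-Ab1 and H2-T24 passed in the male pair but not in the female pair (adjusted p up to 0.182). Tgtp1 and Tgtp2 passed in the female pair but not in the male pair (adjusted p up to 0.25). H2-DMb2, H2-Q1, H2-Q4, Usp18, Gbp2, Mx2 and Stat2 passed in neither pair alone (adjusted p up to 0.322). Without either male 3 genes of the MHC list were higher, and without either female 7. Of the interferon response genes 4 were lower without either male and 1 without either female, and 0 were higher.

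**Figure D3:**
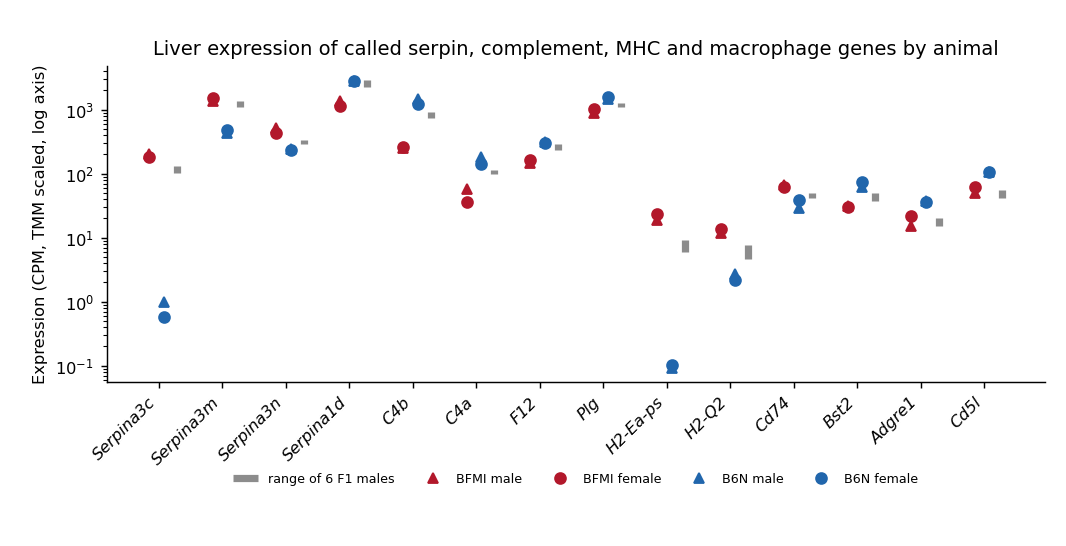
Expression in CPM on a log axis of 14 called genes of serpins, complement and coagulation, the MHC, interferon response and macrophages in the 4 inbred animals, with the range of the 6 F1 males in grey. The 3 Serpina3 genes and the 3 genes of the MHC list lie higher in BFMI (red), and the other 8 lie lower.

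In the remaining metabolic lists the called genes were few. Their shares were 8.33% for amino acid breakdown, 11.1% for iron handling, 6.67% for the cell cycle and 9.52% for major urinary proteins. Over all autosomal genes tested the share was 6.86%. Of 36 genes of amino acid breakdown and the urea cycle, Bckdhb, a subunit of the branched-chain ketoacid dehydrogenase, was at 99.2 and 104 CPM in BFMI against 39.9 and 52.3 CPM in B6N (log2 fold change 1.15 ± 0.126 (SE), adjusted p = 0.000384), and Bhmt, which remethylates homocysteine, at 1746 and 1407 CPM in BFMI against 777 and 529.8 CPM in B6N (log2 fold change 1.29 ± 0.229 (SE), adjusted p = 0.00764). Cth, which makes cysteine, was lower, at 59.5 and 94.9 CPM in BFMI against 172 and 237 CPM in B6N (log2 fold change -1.43 ± 0.164 (SE), adjusted p = 0.000548). Of 18 iron genes the ferrireductase Steap3 was at 19.5 and 15.3 CPM in BFMI against 7.12 and 6.89 CPM in B6N (log2 fold change 1.31 ± 0.173 (SE), adjusted p = 0.00141) and hemojuvelin, listed as Hfe2, at 65.3 and 59.3 CPM in BFMI against 39.6 and 36.3 CPM in B6N (log2 fold change 0.72 ± 0.128 (SE), adjusted p = 0.00804). Of 30 cell cycle genes the inhibitor Cdkn1a was higher, at 7.61 and 2.41 CPM in BFMI against 0.518 and 1.2 CPM in B6N (log2 fold change 2.399 ± 0.568 (SE), adjusted p = 0.0323), and the replication clamp Pcna was lower, at 7.77 and 8.33 CPM in BFMI against 10.98 and 12.7 CPM in B6N (log2 fold change -0.55, adjusted p = 0.0434). Bckdhb, Cth and Steap3 were called in each pair alone. Cdkn1a passed in the male pair but not in the female pair (adjusted p = 0.343). Bhmt, Hfe2 and Pcna passed in neither pair alone (adjusted p up to 0.244). For Cdkn1a (3.87 and 1.03) the log2 fold change moved with the pair used, male and then female. Of 37 nuclear genes of the respiratory chain 0 were called by edgeR and by voom and 1 by DESeq2, with 1 at an unadjusted p under 0.05, and the median was 0.13. Of 27 genes of the unfolded protein response 0 were called by edgeR and 2 each by DESeq2 and voom, both lower, with 4 at an unadjusted p under 0.05. Its median was -0.34 with 4 positive values, and with the 4 inbred libraries alone 4 genes were lower. Its gene with the smallest p, Xbp1, was at 127 and 113 CPM in BFMI against 320 and 168 CPM in B6N (log2 fold change -0.95, adjusted p = 0.0595). Of 21 major urinary protein genes, which are near-identical copies whose counts are uncertain, Mup5 was at 16.5 and 19.96 CPM in BFMI against 1.79 and 0.671 CPM in B6N (log2 fold change 3.92 ± 0.369 (SE), adjusted p = 0.000153), and Mup20, a male pheromone, at 398 and 64.4 CPM in BFMI against 6047 and 125 CPM in B6N (log2 fold change -2.44 ± 0.582 (SE), adjusted p = 0.033). The B6N male stood far above the other 3 animals for Mup20. Mup5 passed the threshold in each sex pair taken alone. Mup20 passed in the male pair but not in the female pair (adjusted p = 0.174). For Mup5 (3.2 and 4.92) and Mup20 (-3.93 and -0.93) the log2 fold change moved with the pair used, male and then female. In this list the 4 inbred libraries alone and DESeq2 each gave 5 higher and 1 lower. Without the BFMI male 7 were higher and 0 lower, without the B6N male 6 and 0, and without either female 1 and 2. Its median was 0.46 and ran from -0.24 without either female to 1.22 without the BFMI male. Without the block on sex it gave 1 higher and 0 lower.

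**Figure D4:**
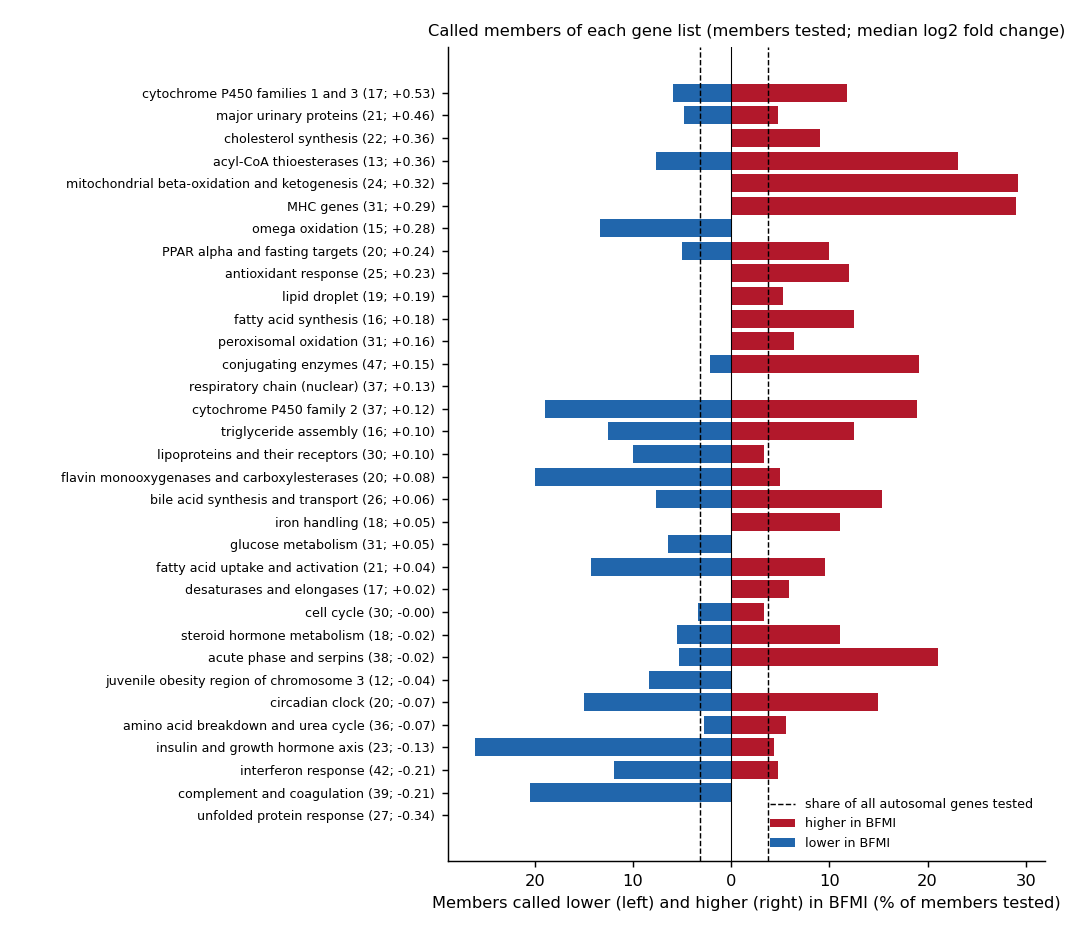
Share of the tested members of each of 33 gene lists called higher (red, right) and lower (blue, left) in BFMI, in percent, with the number tested and the median log2 fold change beside each name. Dashed lines are the shares over all autosomal genes tested, 3.73% higher and 3.13% lower. The longest bars to the right are those of mitochondrial β-oxidation (29.2%) and MHC genes, and the longest to the left is that of the insulin and growth hormone list.

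Beyond the lists, the 20 named genes with the largest positive differences included Rprl3, an RNase P RNA-like gene, at 143 and 104 CPM in BFMI against 0.148 and 0.06101 CPM in B6N (log2 fold change 10.18 ± 0.382 (SE), adjusted p = 4.17e-07). Its relative Rprl2 had 153 counts in BFMI and 0 in B6N, at 0.504 and 1.98 CPM in the BFMI male and female, which makes it at least 34.5-fold higher against a floor of 3 counts over the group. Without the BFMI female this bound was 17.4-fold, and without the male 68.2-fold. Ctse, an aspartic protease of immune cells, was at 55.1 and 44.6 CPM in BFMI against 0.407 and 0.447 CPM in B6N (log2 fold change 6.86 ± 0.228 (SE), adjusted p = 3.02e-07), and A4gnt, a glycosyltransferase of gastric mucin, at 19.8 and 11.4 CPM in BFMI against 0.0185 and 0.183 CPM in B6N (log2 fold change 7.26 ± 0.617 (SE), adjusted p = 7.5e-05). The vomeronasal receptor genes Vmn2r20, Vmn2r21 and Vmn2r22 had log2 fold changes of 7.04, 6.81 and 5.19. Asic5, an ion channel of bile duct cells, was at 87.01 and 80.5 CPM in BFMI against 4.64 and 5.12 CPM in B6N (log2 fold change 4.101 ± 0.164 (SE), adjusted p = 6.3e-07), and Corin, the protease that activates natriuretic peptides, at 22.4 and 18.2 CPM in BFMI against 0.425 and 0.834 CPM in B6N (log2 fold change 5.03 ± 0.273 (SE), adjusted p = 3.47e-06). Vtcn1, Ifi202b, Ly6c1 and Ly6d had log2 fold changes of 4.76, 4.74, 4.2 and 4.14, and the Serpina3 pseudogenes Serpina3h and Serpina3l-ps 5.41 and 5.87. On the lower side, outside the pancreatic genes given next, Cebpe, a factor of granulocyte maturation, was at 0.0297 and 0.0194 CPM in BFMI against 3.402 and 1.81 CPM in B6N (log2 fold change -6.65 ± 0.326 (SE), adjusted p = 1.97e-06). Adgrf1, an adhesion receptor, was at 0.208 and 0.563 CPM in BFMI against 26.7 and 21.2 CPM in B6N (log2 fold change -6.11 ± 0.382 (SE), adjusted p = 9.92e-06). Olig1 was at 0.0297 and 0 CPM in BFMI against 2.35 and 0.488 CPM in B6N (log2 fold change -6.34 ± 0.694 (SE), adjusted p = 0.000389). The olfactory receptor genes Olfr1033 and Olfr1034 were at 0.00988 and 0.0388 CPM in BFMI against 3.698 and 6.41 CPM in B6N and 0.00988 and 0 CPM in BFMI against 1.02 and 2.07 CPM in B6N (log2 fold changes -7.72 and -7.31). Rprl3, Rprl2, Ctse, A4gnt, Vmn2r20, Vmn2r21, Vmn2r22, Asic5, Corin, Vtcn1, Ifi202b, Ly6c1, Serpina3h, Serpina3l-ps, Cebpe, Adgrf1 and Olig1 kept the call both in the male pair and in the female pair. Ly6d passed in the male pair but not in the female pair (adjusted p = 0.128). Olfr1033 and Olfr1034 passed in neither pair alone (adjusted p up to 0.167). For Rprl2 (7.89 and 9.73), A4gnt (9.91 and 5.98), Vmn2r21 (8.05 and 5.74), Vmn2r22 (7.09 and 3.62), Corin (5.71 and 4.48), Ifi202b (5.46 and 4.199), Ly6c1 (5.29 and 3.28), Ly6d (5.49 and 2.73), Serpina3l-ps (10.65 and 4.85), Adgrf1 (-6.99 and -5.199), Olig1 (-6.21 and -7.68) and Olfr1034 (-6.404 and -9.77) the log2 fold change moved with the pair used, male and then female.

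Most of the largest negative differences were genes of pancreatic digestive enzymes. Among the 20 named, 7 are on the list of pancreatic acinar markers: Pnlip, Prss2, Cela2a, Ctrb1, Amy2a5, Cpa1 and Cel. Pnlip, the pancreatic lipase, was at 0.0494 and 0.117 CPM in BFMI against 4.62 and 23.9 CPM in B6N (log2 fold change -7.17 ± 0.555 (SE), adjusted p = 3.76e-05), and Amy2a5, an amylase, at 0.0791 and 0.233 CPM in BFMI against 4.23 and 29.8 CPM in B6N (log2 fold change -6.49 ± 0.467 (SE), adjusted p = 2.46e-05). The B6N female was highest, the B6N male next and both BFMI animals near 0. Other products of the same cells were lower likewise, such as the amylase copies Amy2a2, Amy2a3 and Amy2a4 (-7.31, -7.65 and -7.01 on the log2 scale), Cpb1 (-6.29), Try4 (-7.27), Try5 (-5.803) and Zg16 (-6.36). Reg1 had 289 counts in B6N and 0 in BFMI, at 0.832 and 4.96 CPM in the B6N male and female, at least 142-fold lower in BFMI against the floor. Without the B6N female this bound was 42.4-fold, and without the male 253-fold. Reg1, Try5 and Cel were not called by DESeq2 (adjusted p = 0.234, 0.38 and 0.0607, against 0.0009, 0.0117 and 0.000418 by edgeR). The 8 markers summed to 16.6 and 28.7 CPM in BFMI, to 33.5 and 136 CPM in B6N, and to 16.6 to 28.1 CPM in the F1 males. Cela1, the member that was not called, was at 16.2 and 28.1 CPM in BFMI against 13.7 and 24.3 CPM in B6N and made up most of the sums in BFMI. The other 7 were near 0 in BFMI and in the F1 males, so that transcripts of pancreatic acinar cells were seen in the 2 B6N libraries and most in the female. Their part in other strain differences was not tested. Pnlip, Prss2, Cela2a, Ctrb1, Cpa1, Cel, Amy2a2, Amy2a3, Amy2a4, Amy2a5, Cpb1, Try4 and Reg1 were called in each pair alone. Try5 and Zg16 passed in the female pair but not in the male pair (adjusted p up to 0.0633). For Pnlip (-6.49 and -7.62), Prss2 (-5.47 and -9.01), Cela2a (-5.39 and -7.54), Ctrb1 (-5.62 and -7.14), Cpa1 (-4.87 and -9.04), Cel (-5.27 and -7.56), Amy2a2 (-5.88 and -8.65), Amy2a3 (-6.58 and -8.36), Amy2a4 (-5.55 and -8.64), Amy2a5 (-5.704 and -6.95), Cpb1 (-5.48 and -6.85), Try4 (-5.71 and -8.59), Try5 (-4.08 and -10.94), Zg16 (-5.09 and -7.21) and Reg1 (-8.61 and -11.02) the log2 fold change moved with the pair used, male and then female. Pnlip, Prss2, Cela2a, Ctrb1, Cpa1, Cel, Amy2a2, Cpb1, Try4, Try5, Zg16 and Reg1 fell below the count filter without either B6N animal, and their pair values come from the fits without a BFMI animal.

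Among the marker lists of other cells of the liver and blood, those of macrophages and erythroid cells held several calls. Their called shares were 27.8% and 57.1%, against 6.86% over all autosomal genes tested. Of 18 markers of Kupffer cells and macrophages 5 were lower and 0 were higher, with sums of 417 and 442 CPM in BFMI, 586 and 593 CPM in B6N and 295 to 383 CPM in the F1 males. Adgre1, the F4/80 antigen, was at 15.1 and 21.9 CPM in BFMI against 37.3 and 35.6 CPM in B6N (log2 fold change -1.005 ± 0.142 (SE), adjusted p = 0.00202), Cd5l at 49.5 and 61.7 CPM in BFMI against 104 and 108 CPM in B6N (log2 fold change -0.94 ± 0.135 (SE), adjusted p = 0.00223) and Lyz2 at 45.4 and 32.1 CPM in BFMI against 83.5 and 60.7 CPM in B6N (log2 fold change -0.897 ± 0.123 (SE), adjusted p = 0.00171), and the complement C1q chains C1qb and C1qc had log2 fold changes of -0.79 and -0.702. Of 7 erythroid markers the 4 globin genes were higher, such as Hba-a2 at 158 and 109 CPM in BFMI against 52.04 and 31.6 CPM in B6N (log2 fold change 1.69 ± 0.131 (SE), adjusted p = 3.73e-05), and the sums were 823 and 691 CPM against 327 and 219 CPM. Of 7 neutrophil markers S100a8 was higher, at 2.08 and 0.641 CPM in BFMI against 0.259 and 0.264 CPM in B6N (log2 fold change 2.19 ± 0.521 (SE), adjusted p = 0.0325). Of 13 markers of stellate cells and fibrosis Rgs5 and Col4a1 were higher (log2 fold changes 0.79 and 0.76), of 10 endothelial markers Lyve1 was lower (-1.12), and of 9 cholangiocyte markers Krt8 was higher (0.75). Positive log2 fold changes numbered 8, 4 and 5 in these 3 lists. The median log2 ratio in the males and in the females was 0.74 and -0.41 for the stellate list and 0.45 and -0.1 for the cholangiocyte list. The stellate sums were 585 and 490 CPM in BFMI against 426 and 532 CPM in B6N. Of 9 pericentral markers Slc1a2 was lower (-0.71), and of 9 periportal markers Cyp2f2 was higher (0.803). In each of these lists 4 of the 9 log2 fold changes were positive. Of 8 hepatocyte, 11 T and NK cell, 7 B and plasma cell and 4 adipocyte markers 0 were called by edgeR, with 3, 1, 1 and 1 at an unadjusted p under 0.05. DESeq2 called 1 hepatocyte marker lower and none of the others, and voom 1 T and NK cell marker lower. All 8 hepatocyte markers had negative log2 fold changes, with a median of -0.24. In bulk tissue fewer cells of a type and less RNA per cell cannot be told apart, and the part of cell composition in the strain differences above was not tested. Adgre1, Lyz2, C1qb and Hba-a2 passed the threshold in each sex pair taken alone. Cd5l, S100a8, Rgs5 and Col4a1 passed in the male pair but not in the female pair (adjusted p up to 0.467). Lyve1 and Slc1a2 passed in the female pair but not in the male pair (adjusted p up to 0.425). C1qc and Krt8 passed in neither pair alone (adjusted p up to 0.345). For S100a8 (2.99 and 1.298) the log2 fold change moved with the pair used, male and then female.

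**Figure D5:**
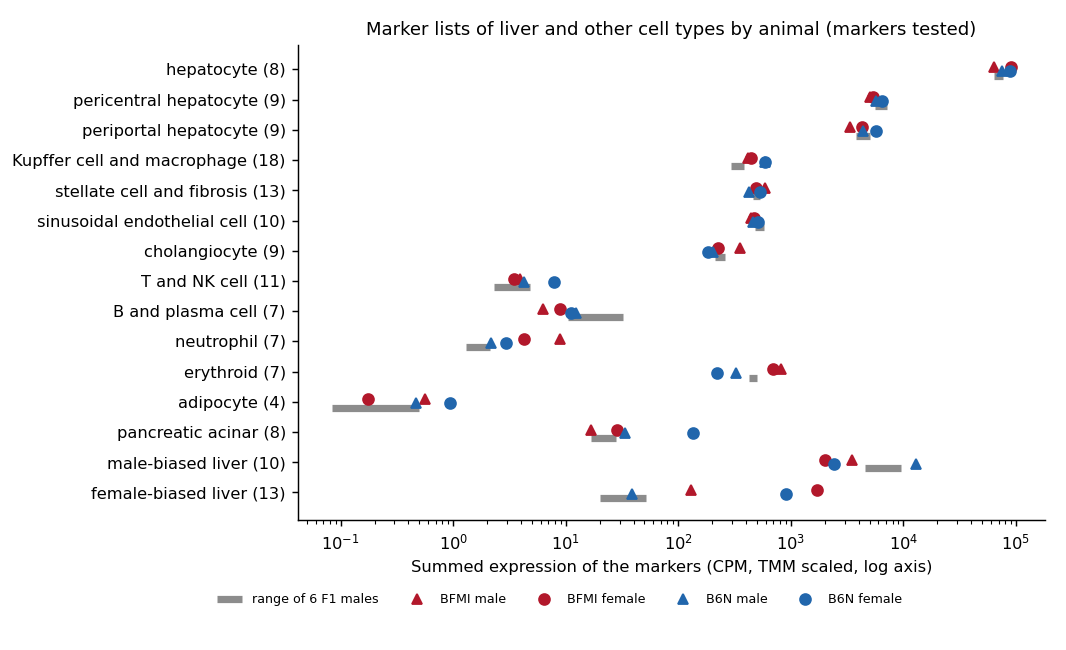
Summed expression in CPM on a log axis of the tested markers of 15 marker lists (number of markers in brackets) in the 4 inbred animals, with the range of the 6 F1 males in grey. The pancreatic sum of the B6N female, 136 CPM, and the erythroid sums of both BFMI animals lie above those of all other animals, and the macrophage sums of both B6N animals are the highest.

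Sex-biased liver genes set the animals apart beside strain. The 10 male-biased genes summed to 3480 CPM in the BFMI male and 12900 CPM in the B6N male, against 4510 to 9450 CPM in the F1 males. In the BFMI and the B6N female they summed to 2020 and 2420 CPM. Most of the sum of the B6N male came from Mup20 and Serpina1e, whose counts among close copies are uncertain. The median log2 ratio of BFMI over B6N in the list was -1.25 in the males and 0.6 in the females. The 13 female-biased genes summed to 1720 and 906 CPM in the BFMI and the B6N female, and to 130 and 39.1 CPM in the males. In the male-biased list C6, Serpina1e and Mup20 were lower, as given above. In the female-biased list Cyp17a1 and Sult3a1 were lower, and A1bg, a plasma protein, was higher, at 15.9 and 404 CPM in BFMI against 0.832 and 66.2 CPM in B6N (log2 fold change 3.25 ± 0.822 (SE), adjusted p = 0.0429), with overlapping strains. DESeq2 did not call A1bg (adjusted p = 0.0653). A1bg passed in neither pair alone (adjusted p up to 0.305). For A1bg (4.26 and 2.64) the log2 fold change moved with the pair used, male and then female. The female-biased list gave 0 higher and 5 lower without either male, 2 and 1 without either female, and 5 and 5 with the 4 inbred libraries alone. The strain difference itself differed between males and females for 6 autosomal genes by the interaction test (0.0316% of those tested), with 1506 at an unadjusted p under 0.05. With 1 animal per strain and sex, this test takes its spread from the F1 males alone. The values of these 6 genes are given in the closing section.

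Calls were spread over all autosomes. The share of tested genes that was called ran from 4.73% on chromosome 2 to 9.2% on chromosome 4. Of 1185 windows of 2 Mb that held a tested gene, 629 held a called gene. The windows given here were chosen after their values were seen. On chromosome 17, from 34000001 to 36000000 (GRCm38), 15 of 119 genes were called, 9 higher and 6 lower. Among them were C4a, C4b and Apom, which were lower, and H2-Aa, H2-Ab1 and the H2-Q genes. On chromosome 12, from 104000001 to 106000000, 9 of 28 genes were called, all 9 of them higher and of the Serpina family. On chromosome 15, from 74000001 to 76000000, 7 of 37 were called, all higher, including Ly6d, Ly6e, Ly6a, Ly6c1 and Ly6c2. Ly6a was at 52.4 and 13.4 CPM in BFMI against 3.75 and 5.49 CPM in B6N (log2 fold change 2.55 ± 0.521 (SE), adjusted p = 0.0161). On chromosome 14, from 50000001 to 52000000, 10 of 25 genes were called, including secreted ribonucleases such as Ang, at 47.7 and 67.6 CPM in BFMI against 127 and 183 CPM in B6N (log2 fold change -1.43 ± 0.154 (SE), adjusted p = 0.000364), and Rnase4, which shares its locus with Ang, at 518 and 612 CPM in BFMI against 806 and 1074 CPM in B6N (log2 fold change -0.72, adjusted p = 0.0371). On chromosome 3, from 112000001 to 114000000, 7 of 9 were called, all of them amylase genes, of which Amy1 was higher and the other 6 were lower. Amy2a2, Amy2a3, Amy2a4 and Amy2a5 of this window are among the pancreatic transcripts given above. They were seen in the B6N libraries, most in the female, and were near 0 in BFMI and in the F1 males. Ang was called in each pair alone. Ly6a and Ly6e passed in the male pair but not in the female pair (adjusted p up to 0.455). Rnase4, Amy1 and Ly6c2 passed in neither pair alone (adjusted p up to 0.251). For Ly6a (3.802 and 1.31) and Ly6e (1.899 and 0.53) the log2 fold change moved with the pair used, male and then female.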

How the data were processed

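Liver RNA-seq of 10 mice was deposited as a table of counts and a table of RPKM. The authors deposited raw counts of reads per Ensembl gene, made in union mode after trimming, alignment to GRCm38 and removal of duplicates. The deposited RPKM values were quantile-normalized by the authors. For these steps the submitters' notes list Trimmomatic 0.32, Picard 1.99, Bowtie2 2.2.6 and TopHat2 2.10, whereas the paper names BWA. Ribosomal RNA removal is stated for the libraries, but the molecule field reads polyA RNA. Columns of 3 further animals, which have no sample record, were left out.

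Groups were taken from the sample records. Of 41388 genes, 40340 were matched to GENCODE M21 and 36286 were autosomal. Counts were scaled by TMM and tested with edgeR 4.0.16 in R 4.3.3 on all 10 libraries, with terms for group and sex, where 2 libraries or more held 10 counts. Depth was 46988713 to 96023811 assigned reads, and precision is given as the SE. Where a strain had 0 counts, a floor of 3 counts over the group bounds the fold, which covers counting error only. Nothing says whether animals of a strain were littermates.

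Gene lists (963 genes in 33 pathway and 15 marker lists, 14 genes not matched) and the comparison itself were chosen with earlier results of these data known. Lists are described by counts and medians only. Named are up to 20 genes per direction with the largest difference among called genes with separate strains. They needed a mean of at least 1 CPM and a symbol that is not a predicted-gene name. Also named are list members that were called or among the 4 with the smallest p, and all tested genes of the chromosome 3 region. Genes the study picked between its F1 crosses and showed beside the parental strains were added. So were the 6 genes with the smallest interaction p. A few others, such as Cela1, Ly6a, Ang and Rnase4, were picked once values had been seen. On simulated data with known changes the test was checked. The alternatives were DESeq2 1.42.0, limma 3.58.1 with voom and on log2 of RPKM plus 1 or 0.1, other scalings and filters, thinning of the BFMI male, a fit without the block, and leaving out libraries. List counts without each library were added after seeing the data. Python 3.11.15 with matplotlib 3.10.9, pandas 2.3.3 and numpy 2.4.6 made the tables and figures. Some genes that this rule names are counted in their lists but not reported here.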

Additional observations from a re-analysis of the deposited data

Results flagged for a closer look

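The strain difference differed between the male and the female pair for 6 autosomal genes (edgeR interaction test, males minus females on the log2 scale). The spread comes from the F1 males, and leaving out patBFMI 1 raised the number of genes to 22. Cyp2b13, a female-biased P450, was at 5.92 and 28.8 CPM in BFMI against 0.166 and 41.02 CPM in B6N (interaction 5.64, adjusted p = 0.00777), with the BFMI male far above the B6N male and the females closer together. Cyp4a12a, a male-biased fatty acid hydroxylase, was at 309 and 116 CPM in BFMI against 174 and 1.403 CPM in B6N (interaction -5.54, adjusted p = 0.00777), and the B6N female alone was low. Mup-ps4, a major urinary protein pseudogene whose reads may come from its copies, was at 4.95 and 20.1 CPM in BFMI against 2.81 and 1.28 CPM in B6N (interaction -3.16, adjusted p = 0.0219). Atp2b2, a calcium pump, was at 3.99 and 3.71 CPM in BFMI against 1.03 and 9.62 CPM in B6N (interaction 3.32, adjusted p = 0.0296). Cyp2c69 was at 32.3 and 37.1 CPM in BFMI against 33.5 and 767 CPM in B6N (interaction 4.32, adjusted p = 0.0372), with the B6N female far above the other 3 animals. Bhlhe41, a repressor in the clock, was at 1.02 and 2.78 CPM in BFMI against 3.48 and 0.691 CPM in B6N (interaction -3.77, adjusted p = 0.0475), and its strain difference was of opposite sign in the 2 pairs, as it was for Atp2b2 and Cyp2b13. Each value rests on 1 animal per strain and sex.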

How the results depend on the processing

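Both counts kept within 1.5 times of 707 and 594 with the 4 inbred libraries alone, without the block, with other scalings, DESeq2, voom, the stricter count filter, autosomal genes only, the thinned BFMI male and without patBFMI 1. Without the replicate block 581 genes were higher and 515 lower. No animals are paired across strains by origin, and sex is the only block. With no filter on low counts 1183 were higher and 695 lower. On log2(RPKM + 1) 187 were higher and 172 lower, and on log2(RPKM + 0.1) 167 and 151. Leaving out each inbred animal gave 280 to 405 genes higher and 250 to 383 lower, and each such fit has fewer samples. The interaction count was 10 with library size scaling and 22 without patBFMI 1. Over the autosomal genes named and all alternatives, 606 values lost the threshold, 34 gained it, 2927 kept their side of it, and none of the called values changed sign. Differences of genes below 1 CPM rest on few reads, and 2 animals per strain limit the precision of all values.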
